A study of Mus musculus with 217 samples.

Results

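The data described here are the ribosome-bound mRNAs of heart endothelial cells (ECs) 24 hr after lipopolysaccharide (LPS), compared with the heart libraries labelled 0 hr. LPS is the endotoxin of gram-negative bacteria and was injected intraperitoneally at 10 mg/kg. The mice were adult RiboTagEC animals on C57BL/6J (Cdh5CreERT2/+; Rpl22HA/+), in which tamoxifen turns on a hemagglutinin (HA) tag on the ribosomal protein Rpl22 in cells that express Cre from the Cdh5 (VE-cadherin) gene. All groups, controls included, had received 5 mg of tamoxifen by gavage, 4 times on alternate days, at 4 to 6 weeks of age. The 0 hr mice are labelled control, and by the study's methods they had been given PBS. Ribosomes were pulled down with an anti-HA antibody from homogenised, frozen heart, so any cell type with Cre activity, and any RNA carried through the pulldown, could enter a library. The comparison used every heart library of the 24 hr and 0 hr groups with at least 3% of its reads on genes, which left 4 of 5 libraries at 24 hr and 5 of 6 at 0 hr, out of 98 libraries in the whole series. The labels do not say whether libraries came from separate mice or from pools, so the p-values below measure only the spread between these libraries.

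Circulating LPS is sensed through the Tlr4 receptor with its partners Cd14 and Ly96, and the signal runs through MyD88 and IRAK kinases to NF-kappaB and, through Ticam1, to interferon production. In endothelium this is known to raise adhesion molecules and chemokines that slow and recruit leukocytes, and to change the balance of clotting, tone and barrier. Interferons and interleukin-6 made in the tissue then act through the JAK and STAT kinases and factors, which adds a further set of induced genes.

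The libraries used held 9792631 to 26666744 counts on genes at 0 hr and 8779113 to 30163229 at 24 hr. The libraries left out had 2.28% (0 hr replicate 6) and 2.13% (24 hr replicate 3) of reads on genes. Endothelial markers were abundant in all 9 libraries: the summed level of 20 pan-endothelial genes was 17849 to 20968 CPM (counts scaled to a common library size) at 0 hr and 15244 to 19493 CPM at 24 hr. RNA of cardiomyocytes was also present, with 30 markers summing to 8904 to 16368 CPM at 0 hr and 8133 to 11383 CPM at 24 hr. Both sums overlapped between the groups on this TMM scale, the scale of all heart levels here, and did not overlap as plain counts per library total. The 0 hr replicate 2 library held lung epithelial markers at 61.8 CPM, against at most 1.98 CPM in the other 8. The fit that gave the fold changes used all 28 heart libraries of the course (0, 6, 24, 48, 72 and 168 hr), and 2 of those stood apart. Over the 15 most increased genes, the median log2 CPM was 1.61 to 2.19 at 0 hr, 8.14 to 9.54 at 24 hr and 9.71 to 10.3 in 4 libraries at 6 hr, but 2.17 in 6 hr replicate 5. The library labelled 72 hr replicate 1 was at 2.06, against 5.49 to 6.77 in the others at 72 hr.

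In all, 16024 genes were tested, of which 1454 (9.07%) were higher and 1140 (7.11%) were lower at 24 hr than at 0 hr at an edgeR adjusted p under 0.05. The median log2 fold change over all genes tested was -0.04. A log2 fold change of at least 1 was reached by 1087 of the higher genes and one of -1 or below by 938 of the lower genes, and 263 and 139 genes lay at 3 or more on the log2 scale in the respective direction. Without any model, every 24 hr library lay above every 0 hr library for 2869 genes (17.9%) and below for 3164 genes (19.7%). Such separation was seen for 1361 of the 1454 higher genes and 1102 of the 1140 lower genes. Fold changes are from a model with a term for library series, the naming pattern of the deposited files, so they differ from the ratio of mean CPM. Replicates 4 and 5 at 24 hr belonged to a series with no 0 hr library. When only the 9 libraries were fitted, without that term, 3515 of 14775 genes were higher (23.8%) and 3757 were lower (25.4%), among them 1363 of the 1454 and 1102 of the 1140. Of the 238 genes named by a fixed rule, the fold changes of 51 differed by over 1.5 times between the fits, and all 51 were further from 0 with the 9 libraries. Without the 2 libraries that stood apart, the counts were 2111 and 2054. Replicate 2 at 24 hr weighed most: without it the counts fell to 443 and 131, and without replicate 1 at 24 hr to 901 and 383. Over 20% of the exon bases of Mt2, Tril, Jam3, Plpp1, Ctsl, Fosl1, Cebpb, Ankrd37, Pln and Rps25 overlap a gene on the other strand, and the strand setting of the counting is not given in the sources used here, so reads of these genes may include those of their neighbours. A number in brackets after a gene is its log2 fold change at 24 hr against 0 hr in the 28-library fit, unless another quantity is named, and values written with ± are mean ± SD over the 5 libraries at 0 hr and the 4 at 24 hr.

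**Figure D1:**
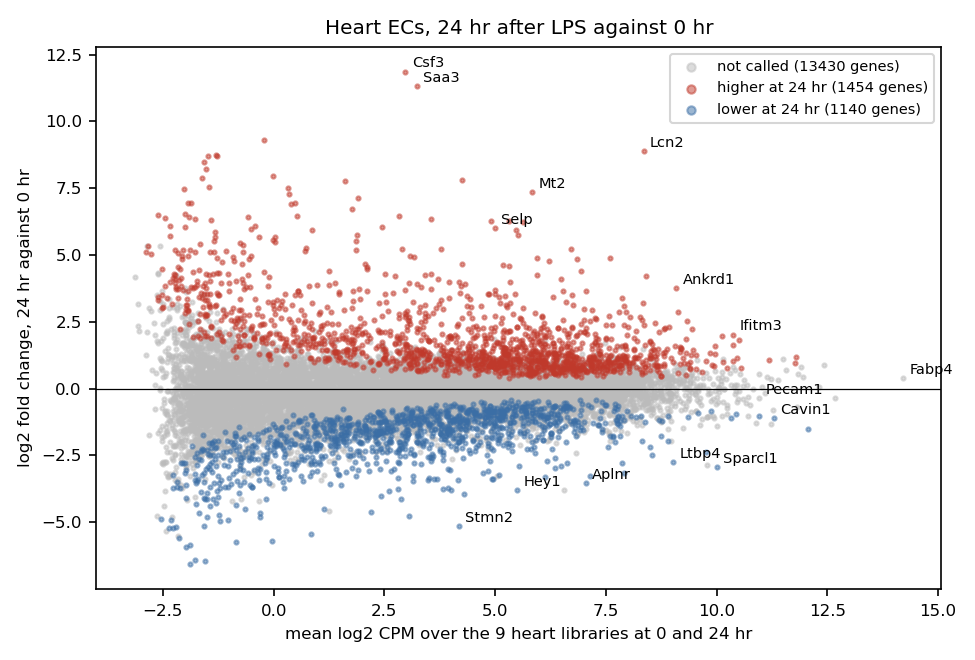
The plot shows each tested gene by its mean log2 CPM over the 9 heart libraries (x axis) and its log2 fold change at 24 hr against 0 hr (y axis), with genes higher at 24 hr in red, lower in blue and not called in grey. Saa3, Csf3 and Lcn2 lie at the top with log2 fold changes of 11.31, 11.86 and 8.88, Stmn2 lies at -5.15, and Pecam1 lies among the genes not called at -0.34.

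The 15 genes with the largest increases, taken from called genes that averaged 3 or more on the log2 CPM scale with no overlap between the groups, included acute-phase and innate defence genes. Lcn2 (chromosome 2, 32384633 to 32388252, minus strand, GRCm38), which encodes the iron-siderophore binder lipocalin-2, was at 18.4, 8.11, 21.0, 16.5 and 14.9 CPM at 0 hr and 12719, 8842, 20592 and 23078 CPM at 24 hr (log2 fold change 8.88, SE 1.23, edgeR adjusted p = 0.000585). Its mean was 15.8 CPM at 0 hr and 16308 CPM at 24 hr, and the groups did not overlap. Neutrophils also carry lipocalin-2, and their markers rose as given further on, a link that was not tested. Saa3 (chromosome 7, 46711998 to 46715700, minus strand), an acute-phase apolipoprotein, was at 0.188, 0.176, 0.382, 0.174 and 0.395 CPM at 0 hr and 284, 908, 405 and 1102 CPM at 24 hr (log2 fold change 11.31, SE 1.51, edgeR adjusted p = 0.000585), where the 5 libraries at 0 hr held 30 counts in all. Mt2 (chromosome 8, 94172664 to 94173568, plus strand), a metal-binding metallothionein, was at 5.07, 1.76, 5.23, 5.81 and 5.68 CPM at 0 hr and 934, 1099.9, 1322 and 2832 CPM at 24 hr (log2 fold change 7.36), with 432 of its 588 exon bases under a gene on the other strand. Mt1, its paralog, rose from 18.7 ± 6.24 to 1028 ± 556 CPM. Serpina3f and Serpina3g, serine protease inhibitors from a cluster of near-identical copies, had log2 fold changes of 7.80 and 6.23. Reads that align to several places were not counted, so levels of such copies are uncertain. The other genes among the 15 with the largest increases were Ubd, a ubiquitin-like modifier (log2 fold change 6.34), the chemokines Cxcl1 (6.29) and Ccl2 (5.95), Nfkbiz, a nuclear regulator of NF-kappaB targets (6.26), the adhesion receptor Selp (6.02), Tmem252 (5.74), the phospholipase Pla1a (5.23), the PI3-kinase regulatory subunit Pik3r5 (4.97) and the interferon-inducible GTPase Gm4841 (4.95).

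**Figure D2:**
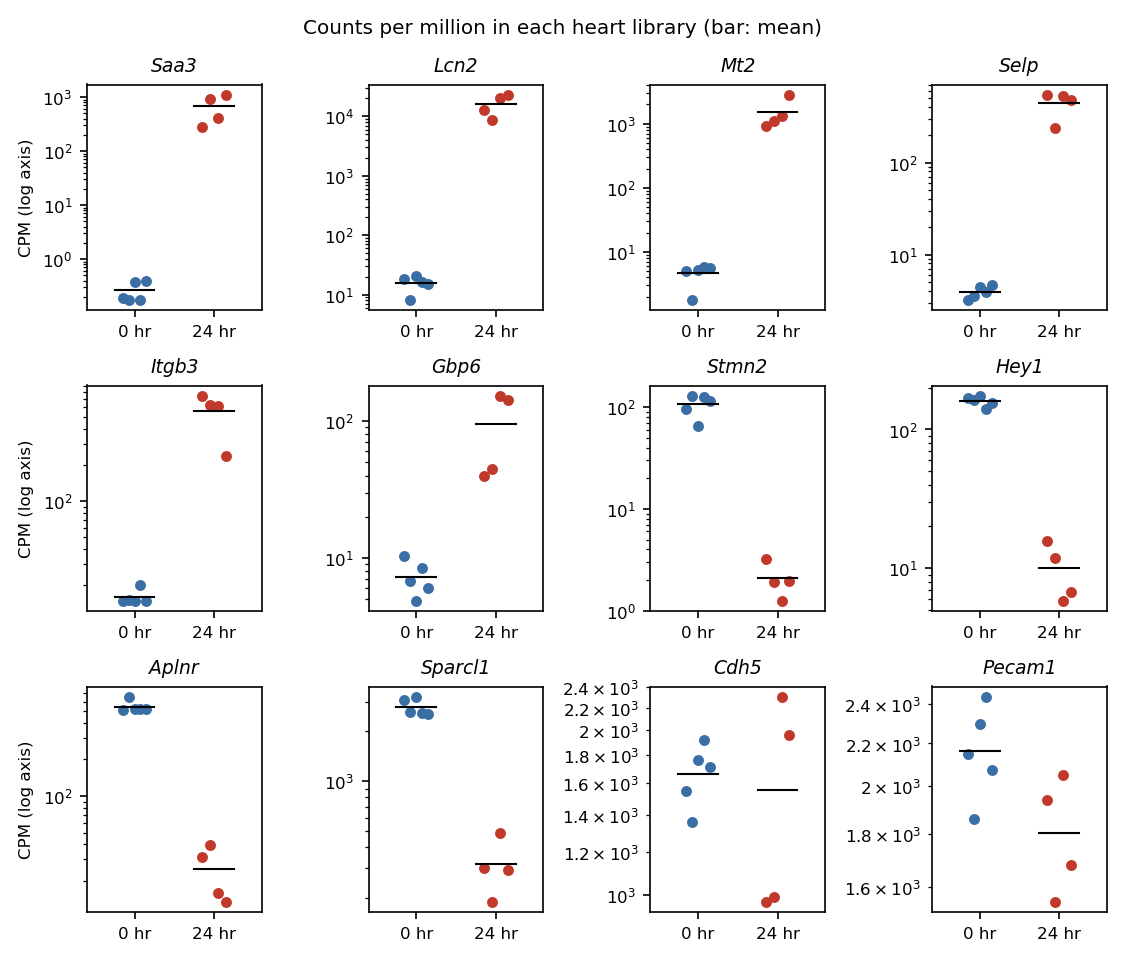
Each panel gives 1 gene's CPM (y axis, log scale) in the 5 heart libraries at 0 hr (blue) and the 4 at 24 hr (red), with a bar at the group mean. Saa3, Lcn2, Mt2, Selp, Itgb3 and Gbp6 are higher in every 24 hr library, Stmn2, Hey1, Aplnr and Sparcl1 are lower in every one, and the groups overlap for Cdh5 and Pecam1.

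Gene lists of known function were read against the share of all genes called. Of 20 acute-phase genes tested, 19 were higher at 24 hr, with a median log2 fold change of 4.89. Besides those above, Serpina3n rose (log2 fold change 4.59, 5.02 to 9.25 CPM at 0 hr and 129 to 648 CPM at 24 hr), as did Cp, the copper oxidase ceruloplasmin (3.10), Lrg1 (3.26), Hp, the haemoglobin scavenger haptoglobin (4.65), the pentraxin Ptx3 (4.23), and Lbp, the protein that delivers LPS to Cd14 (from 29.2 ± 4.80 to 206 ± 51.7 CPM). The 1 member that did not pass was Hpx (log2 fold change 2.84, adjusted p = 0.0545). Of 21 complement genes, 6 were higher. They included C1ra and C1s1, the proteases of the classical pathway, at log2 fold changes of 3.70 and 3.33, their inhibitor Serping1 at 2.71, and C3 at 2.03. Of 8 metallothionein and zinc genes, 4 were higher, including the zinc and iron importer Slc39a14 (from 35.9 ± 5.35 to 445 ± 86.9 CPM). In iron handling, 4 of 16 were higher and 1 was lower. Hamp, the iron hormone hepcidin, was at 0.176 to 1.04 CPM at 0 hr and 10.8 to 18.4 CPM at 24 hr, and Tfrc, the transferrin receptor, had a log2 fold change of 1.38.

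**Figure D3:**
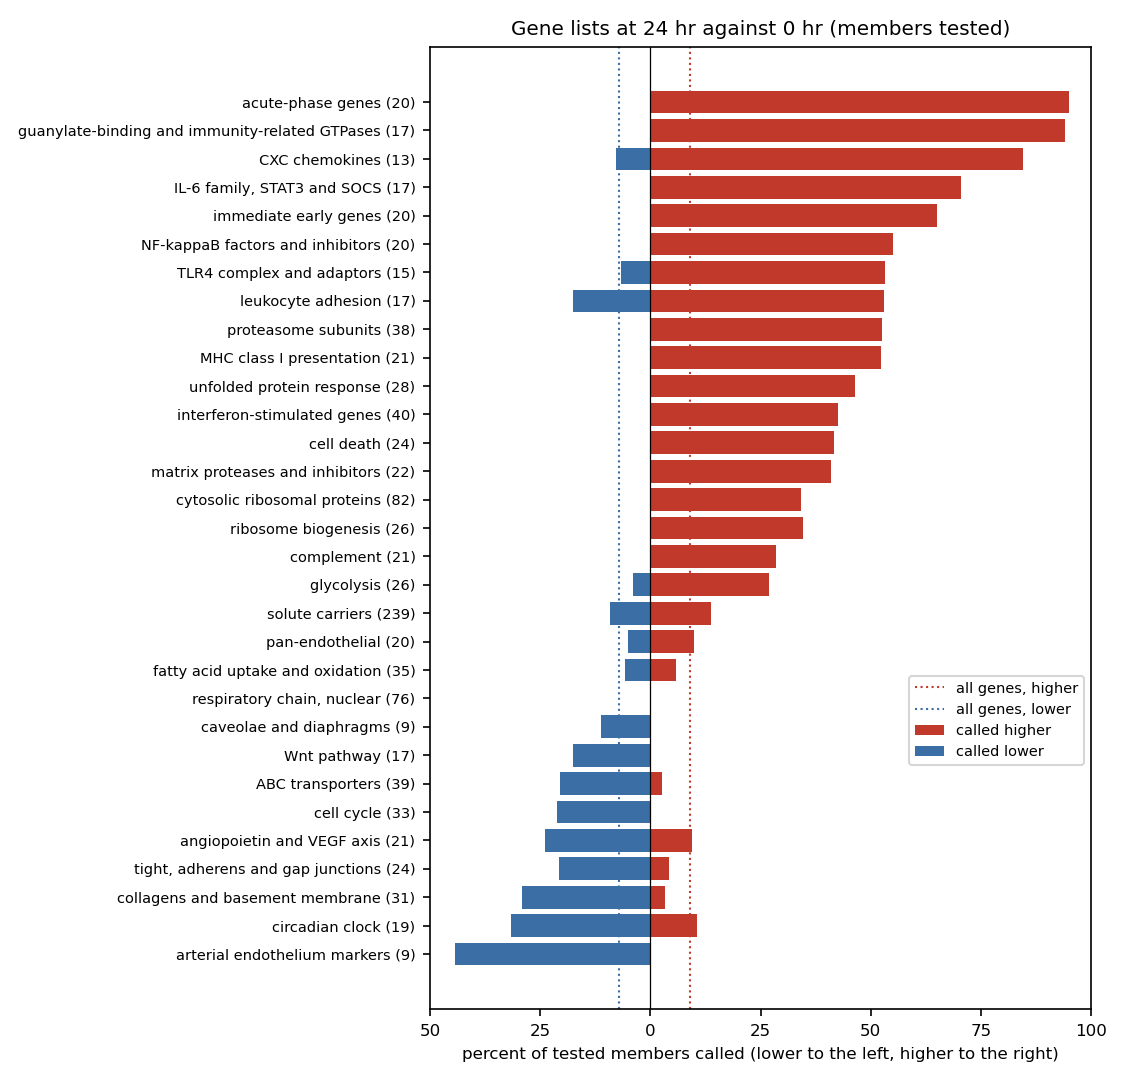
The bars give, for each gene list (number of tested members in brackets), the percentage of tested members called higher (red, to the right) or lower (blue, to the left) at 24 hr, and dotted lines mark the percentages over all genes tested, 9.07% and 7.11%. Acute-phase genes (19 of 20) and guanylate-binding and immunity-related GTPases (16 of 17) have the longest bars to the right, and arterial endothelium markers (4 of 9) have the longest to the left.

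Several adhesion molecules of leukocyte recruitment were higher at 24 hr. Selp (P-selectin, which tethers leukocytes; chromosome 1, 164115264 to 164150026, plus strand) was at 3.19, 3.52, 4.47, 3.93 and 4.63 CPM at 0 hr and 546, 240.0, 529.8 and 476 CPM at 24 hr (log2 fold change 6.02, SE 1.00, edgeR adjusted p = 0.00106). Sele (E-selectin) was at 0.939, 1.15, 1.11, 2.05 and 1.26 CPM at 0 hr and 121, 51.9, 59.2 and 41.2 CPM at 24 hr (log2 fold change 5.23, adjusted p = 0.00169). Neither selectin overlapped between the groups, and 24 hr replicate 2 was the lowest for Selp. Icam1, the ligand of leukocyte integrins, was at 131, 96.9, 112, 138 and 98.9 CPM at 0 hr and 1788, 916, 1064 and 1169 CPM at 24 hr (log2 fold change 3.20, edgeR adjusted p = 0.00203), and Vcam1 was at 150.5, 146, 192, 182 and 163 CPM at 0 hr and 715, 761, 794 and 877 CPM at 24 hr (log2 fold change 2.37, edgeR adjusted p = 0.00169). Ackr1, the chemokine-transporting receptor of venules, was at 0.564, 0.793, 0.840, 0.452 and 1.01 CPM at 0 hr and 61.4, 45.8, 74.0 and 62.3 CPM at 24 hr (log2 fold change 6.05, SE 0.89, edgeR adjusted p = 0.000585), with no overlap between the groups. Of the 17 adhesion genes tested, 9 were higher and 3 were lower (median log2 fold change 0.83). Madcam1 (3.67), Mcam (1.47), the junctional adhesion molecule F11r (1.27) and Cd47 (0.83) were also higher, while Jam3 (-1.41), Podxl (-1.04) and Cd99l2 (-0.96) were lower.

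Of 13 CXC and CX3C chemokines tested, 11 were higher and 1 was lower, with a median log2 fold change of 4.88. The neutrophil attractants Cxcl1 and Cxcl2 were at 5.45, 3.79, 4.89, 6.85 and 4.17 CPM at 0 hr and 365, 459.7, 674 and 731 CPM at 24 hr, and at 0.188, 0.617, 0.306, 0.382 and 0.144 CPM at 0 hr and 40.6, 68.7, 87.8 and 61.0 CPM at 24 hr, respectively. The fold change of Cxcl2 (log2 7.14) rests on 32 counts over the 5 libraries at 0 hr. Cxcl3 was at 0 counts in every 0 hr library and at 1.6, 1.29, 3.15 and 1.87 CPM at 24 hr (edgeR adjusted p = 0.0144). The interferon-inducible T cell attractants Cxcl9 and Cxcl10 rose to means of 2677 and 580.5 CPM (log2 fold changes 4.22 and 4.88). In 24 hr replicates 1, 2, 4 and 5, Cxcl9 was at 551, 1143, 4061 and 4952 CPM and Cxcl10 at 207, 113.5, 1101 and 900 CPM. Replicates 4 and 5, the highest for both, belonged to the series with no 0 hr library. Cxcl12, which retains Cxcr4-bearing cells and is made by heart ECs at rest, was the 1 that fell, at 1736 to 2252 CPM at 0 hr and 196 to 516 CPM at 24 hr (log2 fold change -2.37, edgeR adjusted p = 0.0361). Among 14 CC chemokines, 5 were higher and 1 was lower. The monocyte attractants Ccl2 and Ccl7 had log2 fold changes of 5.95 and 5.75, and Ccl5 of 3.65, while Ccl6 was lower (-2.19).

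Cytokines and their receptors changed with the chemokines. Il6 was at 0, 0.176, 0.115, 0.243 and 0.180 CPM at 0 hr and 33.3, 58.0, 184 and 128 CPM at 24 hr (log2 fold change 7.78, SE 1.38, edgeR adjusted p = 0.00163), and Csf3, the granulocyte colony-stimulating factor, was at 0, 0.176, 0.0382, 0.174 and 0.0719 CPM at 0 hr and 585, 672, 1359 and 1395 CPM at 24 hr (log2 fold change 11.86). These fold changes rest on 17 and 10 counts over the 5 libraries at 0 hr. Every 24 hr library was far above every 0 hr library for both. Csf1, the macrophage growth factor, rose from 85.6 ± 10.4 to 543 ± 156 CPM, and Tnf was at 0.617 to 1.39 CPM at 0 hr and 3.85 to 22.0 CPM at 24 hr. Of 17 genes of the IL-6 family with STAT3 and SOCS, 12 were higher (median log2 fold change 1.39), including the feedback inhibitors Socs3 (3.00) and Socs1 (3.96) and the kinase Pim1 (2.45). Of 18 TNF and IL-1 ligands and receptors, 7 were higher and 1 lower. Tnfrsf12a (2.11) and the IL-1 receptor Il1r1 (1.28) rose and Tnfrsf21 fell (-1.25). Among cytokines and receptors of blood cells, 7 of 18 were higher and 1 lower, and by symbol 15 of 41 interleukin and TNF superfamily receptors were higher and 2 lower. Il4ra (from 112 ± 9.97 to 1245 ± 744 CPM), Csf2rb (4.28), Il6ra (2.4), Il17ra (2.23) and Tnfrsf25 (2.57) were among those higher.

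The LPS sensor itself did not pass the test. Tlr4 was at 23.5, 19.1, 19.5, 31.5 and 17.9 CPM at 0 hr and 28.8, 24.4, 28.2 and 17.4 CPM at 24 hr (log2 fold change 0.14, adjusted p = 0.71), and the groups overlapped. Around it, 8 of 15 genes of the Tlr4 complex and its adaptors were higher and 1 lower. The co-receptor Cd14 (2.14 to 3.38 CPM at 0 hr and 18.1 to 35.6 CPM at 24 hr), the inhibitory kinase homolog Irak3 (2.84) and the kinase Irak2 (2.09) rose. Of 20 NF-kappaB factors and inhibitors, 11 were higher in the 28-library fit and 17 of 19 in the 9-library fit (median log2 fold change 1.34). The feedback genes Tnfaip3, a ubiquitin-editing enzyme (from 25.8 ± 4.59 to 320.4 ± 26.6 CPM), and Zc3h12a, an RNase that degrades cytokine mRNAs (3.45), and the kinase Ikbke (3.61) were among them. Immediate early genes were higher in 13 of 20 cases, with Fosl1 (5.19, from 50 counts over the 0 hr libraries), Myc (4.11), Cebpb (3.54) and Junb (2.57) leading.

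Promoter windows of the CXC chemokines and of the NF-kappaB list were searched for the kappaB motif, to which NF-kappaB dimers bind. The windows ran from 250 bases before to 50 bases after a gene's start, in the RefSeq annotation of GRCm38.p6. On either strand, 4 of 10 CXC windows (40.0%) and 9 of 17 windows of the NF-kappaB list (52.9%) held the motif, against 5.22% of 11027 tested genes with a window, 7.45% of 1020 higher genes, 4.81% of 853 lower genes and 4.51% of all 32851 windows. Stretches are shown for the chemokines above and for Nfkbia, which encodes the inhibitor IkappaB-alpha, with the match in capitals. They are written 5′ to 3′ on the strand of the gene: Cxcl1 at chr5:90891159-90891198, plus strand, Cxcl2 at chr5:90903787-90903826, plus strand, Cxcl3 at chr5:90786013-90786052, plus strand, both Cxcl10 stretches at chr5:92349024-92349063, minus strand and chr5:92348968-92349007, minus strand, and Nfkbia at chr12:55492652-55492691, minus strand.
Cxcl1: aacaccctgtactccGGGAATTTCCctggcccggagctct
Cxcl2: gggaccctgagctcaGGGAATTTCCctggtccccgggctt
Cxcl3: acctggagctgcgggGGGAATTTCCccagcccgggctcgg
Cxcl10: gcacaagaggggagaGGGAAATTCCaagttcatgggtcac
Cxcl10: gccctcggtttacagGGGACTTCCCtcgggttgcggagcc
Nfkbia: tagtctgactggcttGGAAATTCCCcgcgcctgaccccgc
Cxcl1, Cxcl2 and Cxcl3 share the same 10 letters in capitals, and Cxcl10 has a pair of different ones. A match describes the letters in the window and is not evidence that a factor bound there. The matches to C/EBP (TTGCNNAA, either strand) were in 8 of 15 acute-phase windows (53.3%), against 8.27% of tested genes.

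Many interferon-inducible genes were higher, most of all the GTPases. Of 17 guanylate-binding proteins (Gbp) and immunity-related GTPases, which attack compartments that hold microbes, 16 were higher (median log2 fold change 2.30). Gbp6 was at 10.2, 6.78, 4.81, 8.38 and 6.00 CPM at 0 hr and 39.7, 44.3, 153 and 144 CPM at 24 hr (log2 fold change 3.08, edgeR adjusted p = 0.00316), Gbp5 was at 143, 146, 143, 163 and 112 CPM at 0 hr and 709.7, 472, 1646 and 1202 CPM at 24 hr (log2 fold change 2.56, edgeR adjusted p = 0.0038), and Igtp was at 169, 109.8, 95.4, 94.1 and 70.5 CPM at 0 hr and 494, 528, 1479.7 and 1308 CPM at 24 hr (log2 fold change 2.70, edgeR adjusted p = 0.00355). All 24 hr libraries were above all 0 hr libraries for these 3 genes. For all 3, replicates 1 and 2 at 24 hr were below replicates 4 and 5, which belonged to the series with no 0 hr library. Of 40 interferon-stimulated genes of a further list, 17 were higher, and 30 in the 9-library fit. They included Zbp1, a sensor of Z-form nucleic acid (3.46), Oas3 (2.71), the factor Irf7 (2.11) and Ifitm3, which blocks viral entry (from 665 ± 61.5 to 3251 ± 784 CPM). Among interferon receptors and regulatory factors, 5 of 15 were higher: Irf8 (3.52), Irf1 (1.46), Jak2 (0.82) and Socs1 were among them.

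The GTPase promoters carried the interferon-stimulated response element (ISRE, letters GAAANNGAAA, either strand) in 9 of 10 windows (90.0%). The share was 51.7% (15 of 29) for the list of interferon-stimulated genes, 3.10% for all tested genes, 6.67% for higher genes, 2.46% for lower genes and 3.44% for all RefSeq windows. GAS letters (TTCNNNGAA) were in 6 of the 10 GTPase windows, against 6.73% of tested genes. Some of the promoters are of duplicated genes, so the windows are not independent of each other. Stretches are shown for members of both GTPase families: Gbp2 (chr3:142620589-142620628, plus strand), Gbp3 (chr3:142559984-142560023, plus strand), Gbp7 (chr3:142530268-142530307, plus strand), Igtp (chr11:58199507-58199546, plus strand), Irgm1 (chr11:48871426-48871465, minus strand) and Tgtp2 (chr11:49064258-49064297, minus strand), on the strand of each gene with the ISRE match in capitals.
Gbp2: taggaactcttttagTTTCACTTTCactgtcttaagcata
Gbp3: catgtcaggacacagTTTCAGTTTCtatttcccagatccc
Gbp7: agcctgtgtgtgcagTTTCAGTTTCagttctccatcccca
Igtp: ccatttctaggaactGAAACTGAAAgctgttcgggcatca
Irgm1: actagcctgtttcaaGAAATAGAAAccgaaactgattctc
Tgtp2: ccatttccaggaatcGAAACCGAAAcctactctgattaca
The Gbp windows hold the element on the strand opposite to the gene, so that it reads as TTTC repeats, and the Igtp, Irgm1 and Tgtp2 windows hold it on the strand of the gene. The matched bases begin 59, 45, 53, 34, 30 and 70 bases before the RefSeq start, in that order.

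MHC class I presentation, which displays peptides made inside the cell, and class II, which displays those taken up, differed in their counts. Of 21 class I genes, 11 were higher (52.4%, median log2 fold change 1.10), against 9.07% of all genes tested. The 9-library fit called 18 of the 21 higher, against 23.8% of all genes. The peptide transporter Tap1 was at 169.6, 93.9, 100.3, 99.8 and 88.1 CPM at 0 hr and 510.0, 483, 948 and 788 CPM at 24 hr (log2 fold change 2.4, edgeR adjusted p = 0.00545), and the class I genes H2-Q4 (1.85) and H2-T23 (1.28) and their activator Nlrc5 (1.51) rose. Copies within the H2 region are near-identical, so their single values are uncertain. Of 9 class II genes, 1 was higher, the protease Ctss (1.47), and 1 was lower, H2-Ob (-3.67). These class II shares, 11.1% each, were near those of all genes tested (9.07% and 7.11%). Cd74, H2-Aa and H2-Ab1 had log2 fold changes of 0.86, 0.29 and 0.67 and did not pass. Of 10 genes of T cell costimulation and restraint, 4 were higher and 1 lower: Cd274 (PD-L1) rose from 89.3 ± 20.1 to 858 ± 542 CPM, and Icosl (3.21), Cd40 (1.91) and Tnfsf9 (1.81) rose as well, while Vsir fell (-1.28).

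Many genes of protein making and breakdown were higher. Of 38 proteasome subunits, 20 were higher (median log2 fold change 0.84). In every 24 hr library 35 of 38 were above the 0 hr libraries, against 17.9% of all genes. The 9-library fit called 36 of 38. Psmc4, an ATPase of the regulatory cap, was at 143, 126, 128, 92.2 and 123 CPM at 0 hr and 269, 357, 356 and 488 CPM at 24 hr (log2 fold change 1.25, edgeR adjusted p = 0.0261). Psmb3, Psmd3 and Psmb4 had log2 fold changes of 1.26, 1.24 and 1.22. Of 28 genes of the unfolded protein response, 13 were higher (median 0.69), including the factors Atf3 (2.26) and Atf4 (from 162 ± 15.6 to 635 ± 183 CPM) and the endoplasmic reticulum proteins Sdf2l1 (2.00) and Manf (1.64). Ribosome biogenesis genes were higher in 9 of 26 cases (median 1.06), and in 24 in the 9-library fit, with Rrp12, Gnl3, Nop58 and Rrp1b at log2 fold changes of 1.64, 1.52, 1.42 and 1.39. Among tRNA synthetases 3 of 20 were higher and 14 in the 9-library fit, led by the interferon-inducible Wars (from 205 ± 64.9 to 1156 ± 557 CPM), with Vars (0.93) and Sars (0.82).

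Cytosolic ribosomal proteins were higher in 28 of 82 cases (median log2 fold change 1.00). Their summed level was 3830.2 to 4842 CPM at 0 hr and 5908 to 9940.1 CPM at 24 hr. These ranges did not overlap, but they did as plain counts per library total. Rpl10a (2.17), Rpl39 (1.90), Rps25 (1.89) and Rpl10 (1.88) led, at 24 hr means of 7.61 to 41.8 CPM. Reads shared with processed pseudogenes were not counted, which leaves these levels low and uncertain, and 13 of 33 tested ribosomal protein pseudogenes with such a symbol were higher too. Rpl22, the tagged protein's gene, was at 92.9 to 111 CPM at 0 hr and 101 to 148 CPM at 24 hr (log2 fold change 0.44, adjusted p = 0.161). Heat shock genes were mostly not called: 2 of 15 were lower, the co-chaperone Fkbp4 (from 218 ± 57.4 to 65.1 ± 19.4 CPM) and the factor Hsf1 (-0.66). Of 20 autophagy and lysosome genes, 2 were higher, the proteases Ctsl (1.97) and Lgmn (0.69), and 1 was lower, Ctsh (-1.81). These shares, 10% and 5%, were near those of all genes tested (9.07% and 7.11%).

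Metabolic lists split by pathway. Of 26 glycolysis genes, 7 were higher and 1 lower (median log2 fold change 0.62; 15 higher and 4 lower of 24 in the 9-library fit). Pfkfb3, whose product sets the level of the activator of phosphofructokinase, was at 72.2, 67.9, 84.4, 71.3 and 66.2 CPM at 0 hr and 821, 663, 1447 and 1398 CPM at 24 hr (log2 fold change 3.40, SE 0.62, edgeR adjusted p = 0.00183). The glucose carrier Slc2a1 was at 29.8, 18.9, 24.2, 17.5 and 17.1 CPM at 0 hr and 117, 79.5, 319 and 356 CPM at 24 hr (log2 fold change 2.27, SE 0.41, edgeR adjusted p = 0.00178), and the lactate carrier Slc16a3 rose from 8.12 ± 1.35 to 133 ± 91.5 CPM. All 24 hr libraries lay above all 0 hr libraries for these 3. Pgk1 also rose (1.69). Hypoxia response genes were higher in 4 of 16 cases and lower in 1: Hif1a (from 128 ± 17.4 to 907 ± 439.7 CPM), the vasodilator peptide gene Adm (1.83) and the hydroxylase Egln3 (1.36) rose and Ankrd37 fell (-1.04). Of 27 oxidative stress genes, 7 were higher and 1 was lower, with Sod2, the mitochondrial superoxide dismutase (from 118 ± 24.8 to 703 ± 202 CPM), Gpx3 (2.05) and Gsr (1.12) up and catalase (Cat, -1.05) down.

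No nuclear gene of the respiratory chain was called among 76 tested with edgeR (median log2 fold change 0.12). Of these, 2 had an unadjusted p under 0.05 by edgeR, DESeq2 called 1, limma-voom called 0 and the 9-library fit called 6. In fatty acid uptake and oxidation, 2 of 35 were higher, Angptl4, an inhibitor of lipoprotein lipase (from 61.8 ± 36.3 to 408 ± 139 CPM), and Acsl4 (0.86), and 2 were lower, Eci1 (-0.81) and Acsl1 (-0.76). Each share, 5.71%, lay below that of all genes tested (9.07% higher and 7.11% lower). Of 32 cholesterol genes 4 were higher (12.5%) and 1 lower (3.13%), shares near those of all genes. They were led by Ch25h, whose 25-hydroxycholesterol restrains sterol synthesis (6.36 to 10.5 CPM at 0 hr and 181 to 307 CPM at 24 hr, log2 fold change 4.62), with Lss (1.38) and Hsd17b7 (1.10) up and Stard4 down (-0.78).

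Hormone and clock genes also moved. Glucocorticoid-responsive genes were higher in 4 of 15 cases and lower in 1: Fkbp5, a chaperone of the glucocorticoid receptor, was at 119.9, 73.0, 96.5, 75.4 and 73.0 CPM at 0 hr and 795, 927, 963 and 1126 CPM at 24 hr (log2 fold change 2.87, edgeR adjusted p = 0.00252), and Cebpd (3.65), Pdk4 (2.99) and Errfi1 (1.88) rose. Of 19 circadian clock genes, 2 were higher and 6 lower (median log2 fold change -0.80). Arntl, the activator of the clock loop, was at 4.88, 5.64, 3.13, 5.95 and 2.01 CPM at 0 hr and 19.6, 42.6, 86.7 and 95.4 CPM at 24 hr (log2 fold change 3.00, edgeR adjusted p = 0.00322), and its output genes Dbp and Hlf were at 112, 328, 406, 188 and 324 CPM at 0 hr and 38.6, 28.1, 15.8 and 24.6 CPM at 24 hr, and at 42.9, 87.5, 139, 81.4 and 94.0 CPM at 0 hr and 8.43, 10.4, 3.43 and 5.17 CPM at 24 hr, respectively (log2 fold changes -2.89 and -3.15). The groups did not overlap for Arntl, Dbp or Hlf, and Nfil3, the repressor that opposes Dbp, rose (2.53). The clock time of each collection is not given in the sources used here, so time of day and LPS cannot be told apart for these genes.

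In the main fit, the clotting and tone lists held larger shares of higher genes (22.7% and 17.4%) than all genes tested (9.07%). Their shares of lower genes (9.09% and 8.7%) were near that of all genes (7.11%). For tone this depended on the fit. The 9-library fit called 5 of 21 tone genes higher and 9 lower (median log2 fold change -0.24), against 23.8% and 25.4% of all genes. It called 8 of 20 clotting genes higher and 7 lower. In the main fit, 5 of 22 coagulation and fibrinolysis genes were higher and 2 lower. The urokinase receptor Plaur (from 24.4 ± 3.58 to 522 ± 209 CPM) and Serpine2 (2.16) rose, and F2rl1, a protease-activated receptor, fell (-1.77). Of 23 genes of nitric oxide and tone, 4 were higher and 2 lower: the arginine carrier Slc7a2 (from 6.12 ± 1.78 to 77.8 ± 18.7 CPM) and Gch1, which makes the synthase cofactor (1.02), rose, while Spr, a later step of that cofactor's synthesis (-0.69; groups overlapping), and Pde5a (-1.80) fell. Among 17 prostaglandin genes, 4 were higher and 2 lower, with Ptgs2 (cyclooxygenase-2) at 2.54 to 13.3 CPM at 0 hr and 32.2 to 46.4 CPM at 24 hr (log2 fold change 2.84) and Slco2a1 (1.29) and Ptges2 (0.96) higher. In sphingosine-1-phosphate signalling 3 of 9 were higher: the kinase Sphk1 (7.42, 2.03, 3.90, 2.75 and 2.73 CPM at 0 hr and 72.5, 123, 211 and 354 CPM at 24 hr; log2 fold change 4.67), the receptor S1pr1 (from 864 ± 180.2 to 1896 ± 477 CPM) and Plpp1 (0.83).

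Most pan-endothelial marker genes were not called. The defining markers Cdh5 and Pecam1 were at 1547, 1360.0, 1767, 1921 and 1712 CPM at 0 hr and 970.5, 993, 2302 and 1959 CPM at 24 hr, and at 2149, 1859, 2298, 2441 and 2074 CPM at 0 hr and 1942, 1547, 2052 and 1679 CPM at 24 hr, respectively (log2 fold changes -0.37 and -0.34, adjusted p = 0.407 and 0.507). Both overlapped between the groups. Kdr, the main VEGF receptor, was at 1667, 2161, 1826, 2276 and 1752 CPM at 0 hr and 1368, 1654, 1069 and 1267 CPM at 24 hr (log2 fold change -0.53, adjusted p = 0.152), lower in every 24 hr library but not called. Of 20 pan-endothelial genes 2 were higher, Ecscr (from 285 ± 37.1 to 631 ± 185 CPM) and S1pr1, and 1 was lower, the TGF-beta co-receptor Eng (from 1714 ± 261 to 931 ± 233 CPM), with a median log2 fold change of -0.36. The shares of 10% higher and 5% lower were near those of all genes tested (9.07% and 7.11%). The 9-library fit, which called 23.8% of all genes higher and 25.4% lower, called 4 of these 20 genes higher and 7 lower. In these pulldowns, fewer cells of a type and less RNA per cell cannot be told apart, and this holds for each subtype below.

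The genes with the largest decreases included arterial and capillary markers. Stmn2, a microtubule regulator (chromosome 3, 8509360 to 8561606, plus strand), was at 97.0, 130.0, 66.0, 126 and 115 CPM at 0 hr and 3.19, 1.89, 1.24 and 1.95 CPM at 24 hr (log2 fold change -5.15, SE 1.03, edgeR adjusted p = 0.00327). Hey1, the Notch target factor of arterial ECs, was at 167, 163, 175, 140.0 and 154 CPM at 0 hr and 15.6, 11.8, 5.79 and 6.76 CPM at 24 hr (log2 fold change -3.79, SE 1.03, edgeR adjusted p = 0.019), and Aplnr, the apelin receptor (chromosome 2, 85136225 to 85139923, plus strand), was at 507, 657, 517, 517 and 522 CPM at 0 hr and 31.5, 39.4, 15.9 and 13.3 CPM at 24 hr (log2 fold change -3.52, SE 0.86, edgeR adjusted p = 0.0108). The 24 hr libraries held at most 39.4 CPM of Aplnr against at least 507 CPM at 0 hr. Btnl9, a capillary marker, was at 956, 924, 969, 968 and 958 CPM at 0 hr and 206, 150.3, 13.2 and 8.43 CPM at 24 hr (log2 fold change -3.17, adjusted p = 0.0495). Of 9 arterial markers 4 were lower (Stmn2, Hey1, Fbln5 at -2.25 and the gap junction protein Gja5 at -2.02), with a median log2 fold change of -1.56 and a summed level of 1111 to 1406 CPM at 0 hr and 689.9 to 1027 CPM at 24 hr. Of 9 capillary markers, 3 were lower, Aplnr, Btnl9 and the factor Tcf15 (-2.39), and 1 was higher, the carbonic anhydrase Car4 (209, 245, 409, 326 and 269 CPM at 0 hr and 915, 892, 647 and 838 CPM at 24 hr; log2 fold change 1.38). Their summed level overlapped, at 26807 to 32382 CPM and 26155 to 46881 CPM. Of 7 endocardial markers 1 was lower, Cytl1 (214, 264, 219, 300.2 and 348 CPM at 0 hr and 15.3, 34.8, 11.4 and 20.8 CPM at 24 hr; log2 fold change -2.95, edgeR adjusted p = 0.026). All 7 were below the 0 hr libraries in every 24 hr library, against 19.7% of all genes. The 9-library fit called all 7 lower, against 25.4% of all genes. Their summed level was 1066 to 1795 CPM at 0 hr and 431 to 639.5 CPM at 24 hr. Vwf, a member, is also in the pan-endothelial and venous lists. Of 7 venous markers 2 were higher, Ackr1 and Selp, and none was lower, but their median log2 fold change was -0.47. The 9-library fit called 2 venous markers higher and 4 lower. Their summed level overlapped, at 1599 to 2353 CPM at 0 hr and 1307 to 1933 CPM at 24 hr. Of 5 lymphatic markers none was called.

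The other genes among the 15 with the largest decreases are of varied function. H19, an imprinted long noncoding RNA, was at 52.3, 30.3, 153, 188 and 145 CPM at 0 hr and 3.99, 6.80, 1.24 and 1.63 CPM at 24 hr (log2 fold change -3.95, edgeR adjusted p = 0.0155). Magix (-4.76), Ecm2 (-3.78), Tmem255b (-3.76), Tril (-3.72), Ssu2 (-3.44), Papln (-3.40), Fam57b (-3.40), Slc26a10 (-3.38), Hacd4 (-3.38), Nepn (-3.38) and Gm12002 (-3.37) followed, at 0 hr means of 35.6 to 140.1 CPM and 24 hr means of 0.984 to 11.8 CPM. Tril encodes a Tlr4 accessory protein and Ecm2 and Papln encode matrix proteins.

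Among growth factor and vessel-forming lists, lower genes made up 23.8% of the angiopoietin and VEGF axis, 20.8% of junction genes and 17.6% of Wnt genes, against 7.11% of all genes tested. The shares for Notch and arterial genes (10.5%), endothelial transcription factors (7.69%) and caveolar genes (11.1%, 1 gene) were closer to it. Of 21 genes of the angiopoietin and VEGF axis, 5 were lower and 2 higher (median log2 fold change -0.53), and the 9-library fit called 13 lower. The VEGF co-receptor Nrp1 was at 824, 826, 1128, 1005 and 1119 CPM at 0 hr and 300.3, 269, 157 and 129 CPM at 24 hr (log2 fold change -1.94, edgeR adjusted p = 0.0171), and the tip-cell gene Esm1 was at 34.3, 27.1, 45.0, 21.8 and 39.4 CPM at 0 hr and 12.2, 3.36, 4.05 and 2.11 CPM at 24 hr (log2 fold change -2.35, edgeR adjusted p = 0.0208). In the other direction Pgf, the placental growth factor, was at 67.1, 28.7, 36.4, 19.3 and 24.5 CPM at 0 hr and 1417, 1219, 2128 and 3012 CPM at 24 hr (log2 fold change 4.90, SE 0.88, edgeR adjusted p = 0.00169). The lowest 24 hr library was far above the highest 0 hr library for Pgf. Of 19 Notch and arterial genes 2 were lower, Hey1 and Heyl (-1.68), and of 17 Wnt genes 3, including Ctnnb1, the Wnt effector beta-catenin that is also the partner of VE-cadherin at junctions (from 1939 ± 182 to 924 ± 176 CPM), and the co-receptor Lrp6 (-0.95). In BMP and TGF-beta signalling 6 of 30 were higher (20%) and 4 lower (13.3%), against 9.07% and 7.11% of all genes. Inhbb, an activin subunit, was at 6.11, 7.84, 5.92, 10.9 and 7.47 CPM at 0 hr and 237, 107, 635 and 728 CPM at 24 hr (log2 fold change 4.00, edgeR adjusted p = 0.00655; 9-library log2 fold change 5.79), Bmp4 rose from 55.9 ± 13.6 to 320.1 ± 179.6 CPM and Bmp2 rose (log2 fold change 1.88), while Ltbp4, which holds latent TGF-beta in the matrix, fell from 1242 ± 105 to 186 ± 70.2 CPM. Of 26 endothelial transcription factors 2 were lower, Tcf15 and Mef2c (-1.33), and 1 was higher, Klf6 (0.95). Caveolar genes had a median log2 fold change of -1.08: 1 of 9 was lower, the coat protein Cavin1 (3999.5, 3452, 4698, 3402 and 3436 CPM at 0 hr and 1444, 2048, 1277 and 1362 CPM at 24 hr; log2 fold change -1.09, edgeR adjusted p = 0.0454), and 6 in the 9-library fit. Among junction genes, 5 of 24 were lower and 1 higher, with Jam3, Gja5 and Afdn (-1.03) down and F11r up.

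Among matrix genes more were lower than higher, and among matrix proteases the reverse. Of 31 collagens and basement membrane genes 9 were lower and 1 higher (median log2 fold change -0.79), and 20 were lower in the 9-library fit. Sparcl1, a secreted matrix glycoprotein abundant in these ECs, was at 3070.5, 2616, 3209.6, 2572 and 2513 CPM at 0 hr and 302, 188, 486 and 294 CPM at 24 hr (log2 fold change -2.93, SE 0.70, edgeR adjusted p = 0.0094). Its 0 hr and 24 hr values did not overlap. Col6a1 (-2.05), Col8a1 (-1.88) and Col6a2 (-1.67) fell. Of 22 matrix proteases and inhibitors 9 were higher, with Adamts4 (from 2.45 ± 1.06 to 75.8 ± 35.0 CPM), the inhibitor Timp1 (3.90), Mmp3 (3.28) and the membrane protease Mmp14 (2.24) leading. Glycocalyx genes went both ways, 5 higher and 4 lower of 26: the proteoglycans Sdc4 (from 15.6 ± 2.70 to 348 ± 24.2 CPM) and Vcan (2.91) rose, and the hyaluronan synthase Has3 (-2.34) and Gpc6 (-1.98) fell.

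Some cell cycle genes were lower, and Cdkn1a, an inhibitor of the cycle, was higher. Of 33 cell cycle genes 7 were lower, with a median log2 fold change of -1.13, and 24 in the 9-library fit. E2f1, the factor of S-phase entry, was at 22.8, 18.1, 12.6, 17.8 and 21.9 CPM at 0 hr and 2.85, 2.58, 1.91 and 1.47 CPM at 24 hr (log2 fold change -2.51, edgeR adjusted p = 0.00835), and Ccne2, Bub1b and Cenpa had log2 fold changes of -1.55, -1.53 and -1.33. The levels of these genes were low, at most 22.7 CPM on average at 0 hr. Cdkn1a, the p21 inhibitor of cyclin-dependent kinases, was at 412, 137, 131, 136 and 179 CPM at 0 hr and 1329, 1639, 3381 and 4278 CPM at 24 hr (log2 fold change 2.88, SE 0.65, edgeR adjusted p = 0.00648). Of 18 p53 targets and growth arrest genes 4 were higher and 1 lower, Gadd45b (2.70), Gadd45g (1.91) and Plk3 (1.15) among the former. Of 24 cell death genes 10 were higher, with Casp4, the caspase that binds LPS in the cytosol, from 19.6 ± 5.74 to 157 ± 55.2 CPM, and Bid (2.49), Pmaip1 (2.13) and Mlkl, the effector of necroptosis (1.64).

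Transporters split. Of 239 solute carriers tested, 33 were higher and 22 lower (median log2 fold change -0.07), shares 13.8% and 9.21%, beside 9.07% and 7.11% of all genes. The monoamine carrier Slc18a2 (5.36 to 12.7 CPM at 0 hr and 0.301 to 0.570 CPM at 24 hr; log2 fold change -3.56) was among the lower ones. Of 39 ABC transporters 1 was higher and 8 were lower (median -0.64): Abca8a (13.4, 13.4, 8.33, 8.93 and 13.8 CPM at 0 hr and 2.05, 0.258, 0.169 and 0.238 CPM at 24 hr; log2 fold change -3.59, edgeR adjusted p = 0.0103), Abcb4 (-1.71), Abca8b (-1.45) and Abcb8 (-1.28) fell.

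Markers of other cells moved too. Of 11 neutrophil markers tested 8 were higher; they passed the filter mainly through the 24 hr libraries. Their summed level went from 1.34 to 2.82 CPM at 0 hr to 14.5 to 38.2 CPM at 24 hr, and Ly6g, Elane, Camp, Mmp8 and Stfa2l1 were at 0 counts in all 0 hr libraries. The summed level of 15 macrophage markers was 60.5 to 96.2 CPM at 0 hr and 26.0 to 42.2 CPM at 24 hr, of which Cd68 (1.37) and Itgam (3.67) were higher and the others were not called. Pericyte and smooth muscle markers summed to 169 to 308 CPM and 126 to 152 CPM, with 4 of 12 lower (Notch3, Abcc9 and Rgs5 among them) and Kcnj8 higher (1.22). Fibroblast markers summed to 384 to 731 CPM and 605 to 1108 CPM, with Dcn the 1 called member (from 244 ± 74.1 to 715 ± 196 CPM). The median log2 fold change of the 12 fibroblast markers was -0.53, and the 9-library fit called 7 lower and 1 higher. B cell markers went from 2.23 to 8.90 CPM to 0.912 to 2.38 CPM, and these overlapped, though not as plain counts per library total. Platelet markers went in sum from 19.4 to 25.3 CPM to 272 to 765 CPM, most of it at 24 hr the integrin Itgb3 (14.8, 14.9, 14.8, 19.9 and 14.7 CPM at 0 hr and 750.3, 626, 618 and 235 CPM at 24 hr; log2 fold change 4.79, SE 0.77, edgeR adjusted p = 0.000948), which ECs also express, while Pf4 was at 3.02 to 6.32 CPM at 0 hr and 9.69 to 34.1 CPM at 24 hr. Of 30 cardiomyocyte markers 3 were lower, Actc1 (from 683 ± 267 to 143 ± 60.1 CPM), Pln (-1.79) and Casq2 (-0.84), and 1 was higher, the natriuretic peptide gene Nppb (3.19 to 11.6 CPM at 0 hr and 14.8 to 126 CPM at 24 hr). These shares were 10% lower and 3.33% higher, against 7.11% and 9.07% of all genes tested. Ankrd1, a stress-induced gene known from cardiomyocytes and ECs, was at 335, 134, 144, 99.0 and 133 CPM at 0 hr and 2659, 1983, 3524 and 2648 CPM at 24 hr (log2 fold change 3.77, edgeR adjusted p = 0.000585). The part of these cells in the lists above was not tested.

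Compared with 6 hr, 292 genes (1.82%) were higher and 468 (2.92%) were lower at 24 hr. The genes higher at 24 hr than at 0 hr had median log2 fold changes against 0 hr of 1.58, 1.47, 0.89, 0.29 and -0.13 at 6, 24, 48, 72 and 168 hr in turn, and the lower genes had medians of -1.001, -1.61, -0.72, -0.18 and 0.19. These values share the 0 hr libraries, and the 24 hr values are those that chose the genes. Among the named genes, 12 were lower at 24 hr than at 6 hr and 5 were higher. Cxcl2 was at 1101, 1058, 450.2, 352 and 0.210 CPM at 6 hr (log2 fold change -3.82, edgeR adjusted p = 0.039), where the last of the 5 is the library at 0 hr levels. The costimulatory receptor Cd40 (-2.43), the class I activator Nlrc5 (-2.37), Gadd45b (-2.70), Bid (-2.01), Rrp12 (-2.16), Gch1 (-1.41), F2rl1 (-1.78) and Acsl1 (-0.79) were lower too, as were 3 cardiomyocyte markers, Actc1 (-2.12), Casq2 (-1.36) and Pln (-1.52). Higher at 24 hr were Plpp1 (109, 120.5, 164, 178 and 302 CPM at 6 hr; log2 fold change 1.62, edgeR adjusted p = 0.00529), Ecscr (1.12), Kcnj8 (1.69), Rpl10 (1.88) and Cd68 (1.91).

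The test against 6 hr depended on the libraries that stood apart. Without 6 hr replicate 5 and 72 hr replicate 1, 2422 genes were higher and 2415 lower at 24 hr, more than the 2111 and 2054 against 0 hr in the same fit, whereas with all 28 libraries the counts against 6 hr were the smaller. Without them Cxcl1 had a log2 fold change of -2.97 against 6 hr (edgeR adjusted p = 2.73e-05), where the 28-library value was -2.58. Ccl2 was at -3.44 (adjusted p = 5.92e-06), Icam1 at -1.59 (adjusted p = 0.000876) and Mt2 at -3.47 (adjusted p = 0.0101). Lcn2 and Saa3 had values of 0.12 and -0.55 and were not called either way. Kdr and Pecam1 were higher at 24 hr than at 6 hr, at 1.13 and 1.26.

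**Figure D4:**
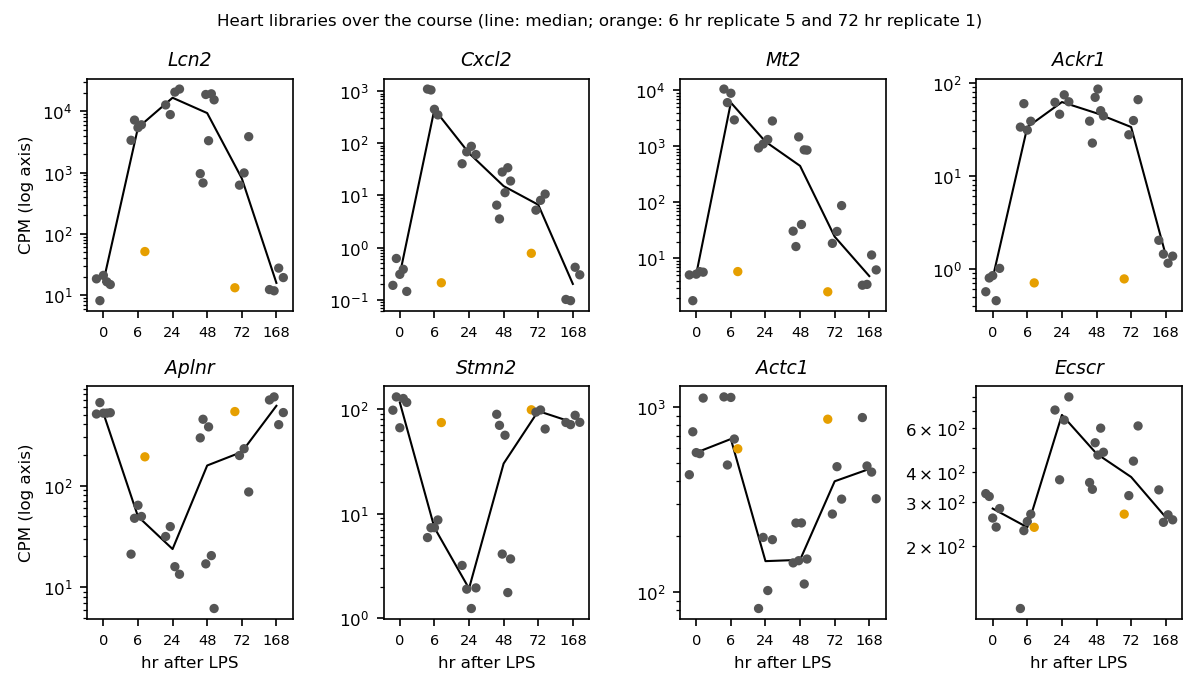
Each panel shows CPM (y axis, log scale) of 1 gene in the heart libraries at 0, 6, 24, 48, 72 and 168 hr after LPS, with a line through the medians and the 2 libraries that stood apart in orange. Lcn2 and Ackr1 are high at 6 and 24 hr, Cxcl2 and Mt2 lie lower at 24 hr than in 4 of the 5 libraries at 6 hr, Aplnr and Stmn2 are low at both times, and the range at 48 hr is wide.

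Against the brain of the same series, few responses at 24 hr differed. The test of the signed difference, heart log2 fold change minus brain log2 fold change, called 59 of 19924 genes above 0 (0.296%) and 68 below 0 (0.341%). It compared 5 brain libraries at 0 hr and 4 at 24 hr. A difference below 0 can mean a smaller rise in heart or a larger fall. Pgf was at 22.9, 10.6, 13.0, 14.5 and 10.5 CPM at 0 hr and 29.9, 37.2, 54.6 and 42.7 CPM at 24 hr in brain, and its response was larger in heart by 3.79 (SE 0.95, edgeR adjusted p = 0.0419). Ankrd1 was at 0.311, 0.723, 0.311, 0.230 and 0.115 CPM at 0 hr and 0.196, 0.186, 1.78 and 2.27 CPM at 24 hr in brain, below 3 CPM in every library, with a difference of 3.70 (SE 0.86, edgeR adjusted p = 0.0255). Arc, a neuronal activity-induced gene, was higher at 24 hr in heart (2.56 to 7.13 CPM at 0 hr and 8.66 to 74.7 CPM at 24 hr) and had a log2 fold change of -1.64 in brain, a difference of 4.53 (SE 0.94, edgeR adjusted p = 0.0133). The carbonic anhydrase gene Car13 and Fjx1 differed by 4.30 and 3.82, and the glucose carrier Slc2a1, higher in heart, had a log2 fold change of -0.70 in brain (difference 2.97 (SE 0.50, edgeR adjusted p = 0.00342)).

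Among genes with a difference below 0, C3 was at 0.311, 0.542, 3.15, 0.768 and 3.69 CPM at 0 hr and 234, 42.7, 129 and 219 CPM at 24 hr in brain and its difference was -4.37 (SE 1.02, edgeR adjusted p = 0.0255), although C3 rose in both. Esm1 was at 10.9, 5.42, 3.07, 3.65 and 1.80 CPM at 0 hr and 57.3, 7.60, 31.1 and 74.8 CPM at 24 hr in brain (difference -4.31 (SE 0.96, edgeR adjusted p = 0.0187)), so 3 of its 4 libraries at 24 hr lay above all at 0 hr there, while it fell in heart. Stmn2, a gene that neurons also express strongly, was at 135, 178, 327, 428 and 293 CPM at 0 hr and 62.1, 282, 59.7 and 64.7 CPM at 24 hr in brain (difference -4.4 (SE 0.96, edgeR adjusted p = 0.0168)). H19 (-6.0), Papln (-4.66), Mmp3 (-5.77) and Actc1 (-4.24) were the other named genes with a difference below 0, and H19 in brain rests on 1 library at 18.9 CPM among others below 3 CPM. Papln was below 2 CPM in every brain library, so its difference rests on values near 0 there. Lcn2, Saa3, Selp, Cxcl1 and Icam1 had log2 fold changes of 8.93, 12.17, 8.14, 8.55 and 4.20 in brain, and their differences from heart were not called, which does not show that they were equal. With only the 0 and 24 hr libraries and no series term, 365 genes were called above 0 and 352 below 0, and without heart 24 hr replicate 2 the counts were 13 and 5.

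**Figure D5:**
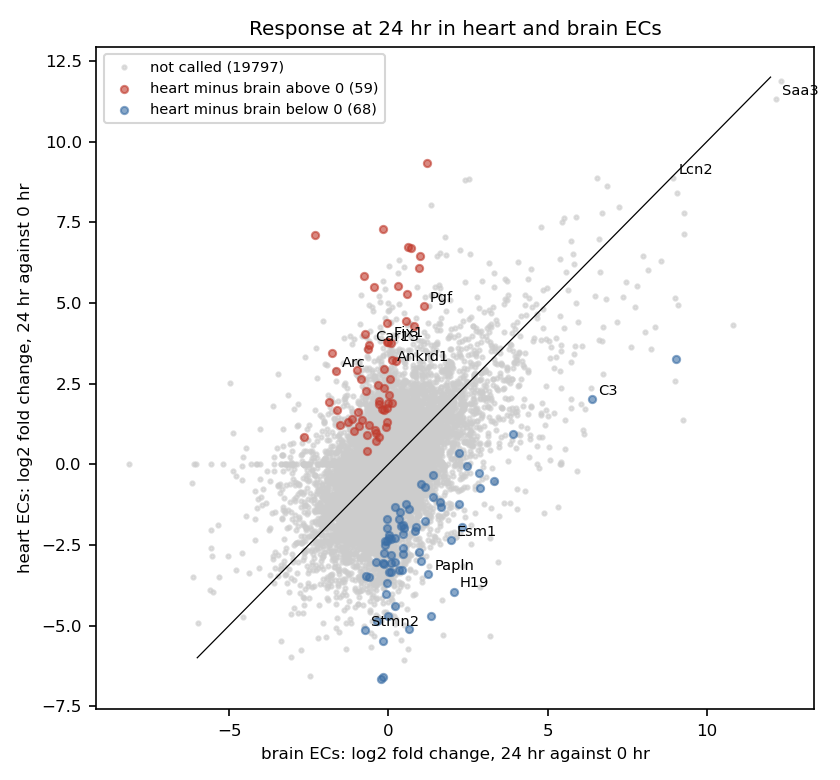
Each point is 1 gene, placed by its log2 fold change at 24 hr against 0 hr in brain ECs (x axis) and heart ECs (y axis), with the line of equal response. Genes called with a heart minus brain difference above 0 are red and below 0 blue: Pgf, Car13, Fjx1, Arc and Ankrd1 lie above the line, and C3, Esm1, Papln, H19 and Stmn2 lie below it.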

How the data were processed

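RNA from the anti-HA pulldowns was sequenced in 98 libraries (217 runs). According to the submitters' processing notes, the authors used STAR 2.4.2, HTSeq 0.6.1 and mm10. The deposited files hold raw read counts per gene, without normalization; annotation release and strand setting are not given in the sources used here. Lines for reads outside genes, ambiguous reads and multiply aligned reads name no gene and were excluded, leaving 60.5 to 65.7% (0 hr) and 54.8 to 63.6% (24 hr) of reads on genes in the heart libraries used. Runs of a library were summed, groups were taken from the labels, and libraries under 3% of reads on genes were left out. Replicates of a group were compared and no pair agreed within sampling noise.

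Gene symbols came from GENCODE M21 (52403 of 52550 IDs matched). Counts were fitted with edgeR 4.0.16 (R 4.3.3, TMM scaling, filterByExpr, quasi-likelihood F test, two-sided) with terms for time and library series, over 28 heart libraries, or over 56 heart and brain libraries for the difference between tissues. P-values were adjusted by Benjamini-Hochberg over all genes tested and called under 0.05. CPM and list sums are TMM-scaled, except in the left-out libraries, whose CPM are plain counts per library total, and log2 CPM have a prior count of 2. Alternatives were DESeq2 1.42.0, limma-voom 3.58.1, ComBat (sva 3.50.0), other scaling, filters and library sets, and leaving out each replicate. The fits without 6 hr replicate 5 and 72 hr replicate 1, and the heart and brain fit of 0 and 24 hr libraries alone, were chosen after seeing the data. The steps were tested on simulated data. Figures were drawn with matplotlib 3.10.9 in Python 3.11.15.

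Named genes were the 15 largest changes in each direction (mean log2 CPM at least 3, called, groups apart), up to 4 called members of each of 72 gene lists by size of change (mean log2 CPM at least 1), 9 fixed genes, and the 5 largest and 5 smallest heart minus brain differences; other list members are named where a list is counted. The genes, lists and comparisons were chosen with earlier results of these data known. Lung was not compared here, and some named genes and a gene list are not reported here.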

Additional observations from a re-analysis of the deposited data

Results flagged for a closer look

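For the named genes, each group of libraries was tested for a highest or lowest library whose gap to its nearest neighbour, divided by the range of the group, passed the Dixon limit at 95%. Over 238 genes and both groups (476 in all), 22 passed, and chance passes about 1 in 20. At 0 hr, replicate 1 stood apart for Irak2 (0.833), Tap1 (0.803), Cdkn1a (0.726) and Pgk1 (0.787), replicate 2 for Mt2 (0.885), Aplnr (0.887), Ikbke (0.738) and Btnl9 (0.712), replicate 3 for Cd14 (0.807), Bmp4 (0.788) and Cat (0.791), and replicate 4 for Icosl (0.726), Errfi1 (0.879), Itgb3 (0.957) and Psmb4 (0.806). At 24 hr, replicate 1 stood apart for Abca8a (0.861), replicate 2 for Selp (0.834), Vars (0.876) and Stard4 (0.921), replicate 4 for Rnd1 (0.844), and replicate 5 for Ctnnb1 (0.860) and Itgb3 (0.834).

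The response at 24 hr differed between heart and brain, by the edgeR test of the difference itself, for 13 named genes. The 5 largest and 5 smallest differences were named because they passed this test, so the count of 13 does not measure how common a difference was. Among all genes tested, 0.296% were called above 0 and 0.341% below 0. On the log2 scale the signed heart minus brain difference was above 0 for Arc (4.53), Car13 (4.30), Fjx1 (3.82), Pgf (3.79), Ankrd1 (3.70) and Slc2a1 (2.97). It was below 0 for H19 (-6.005), Mmp3 (-5.77), Papln (-4.66), Stmn2 (-4.4), C3 (-4.37), Esm1 (-4.31) and Actc1 (-4.24). A value below 0 can be a smaller rise or a larger fall in heart, and Stmn2 fell in heart by -5.15 against -0.74 in brain.

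The 24 hr library left out for its low share of reads on genes, replicate 3, held LPS-induced genes above the left-out 0 hr library, replicate 6. In CPM without TMM scaling, Lcn2 was at 396 CPM against 0 CPM, Mt2 at 33.0 CPM against 0 CPM, Cxcl9 at 103 CPM against 7.93 CPM and Icam1 at 44.7 CPM against 1.59 CPM, where 3 counts in the 0 hr library correspond to 4.76 CPM.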

How the results depend on the processing

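The counts of called genes moved with the settings. Of 5474 values of the 238 named genes under 23 alternatives, none changed sign, 622 lost the call and 5 gained it, with no call lost in the 9-library fit or under DESeq2. As 233 of the 238 were called in the main fit and the alternatives reuse the same libraries, unchanged signs are little test of direction. The cause of the differences between settings was not tested. For 24 hr against 0 hr (1454 higher, 1140 lower), counts were 1892 and 1878 with DESeq2, 1103 and 1215 with limma-voom, 2677 and 3083 with ComBat then limma, 1652 and 1835 with no low-count filter, 2741 and 2559 with no series term, 3515 and 3757 with only 0 and 24 hr libraries, 2732 and 2881 with these and the series term, 2935 and 3055 with library series 1 and 2 alone, and 2111 and 2054 without 6 hr replicate 5 and 72 hr replicate 1. Leaving out 1 replicate gave 443 to 1174 higher and 131 to 787 lower. For 24 hr against 6 hr (292 higher, 468 lower), counts were 648 and 1179 with DESeq2, 455 and 318 with limma-voom, 444 and 916 with no filter, 1366 and 1786 with no series term, and 2422 and 2415 without the libraries that stood apart. Leaving out 1 replicate gave 0 to 253 and 0 to 412. The counts of 0, by edgeR without 24 hr replicate 2, came with 2542 genes at an unadjusted p under 0.05. For heart minus brain (59 above 0, 68 below 0), counts were 137 and 231 with DESeq2, 29 and 49 with limma-voom, 224 and 768 with no filter, 106 and 63 with no series term, 365 and 352 with only 0 and 24 hr libraries, and 13 to 61 and 5 to 75 when leaving out 1 replicate. Deviations of same-numbered libraries at 0 and 24 hr had correlations of 0.146, 0.116, 0.270 and -0.0207. Differently numbered libraries were not compared, so these values cannot decide whether the numbers pair the libraries. The main fit did not pair them. With a replicate block the counts were 817 and 798, 786 and 799, and 56 and 53, in the same order. With libraries under 3% of reads on genes kept in, they were 1560 and 991 for 24 hr against 0 hr.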
